A study of Mus musculus with 26 samples.

Results

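The complement genes C1qa, C1qb, C1qc, C3, C3ar1 and C5ar1 were followed in macrophages sorted from mouse mammary tumours. The 6 members were taken by their exact gene names from the deposited count tables, where they are 6 of 19549 rows. Complement is a cascade of blood and tissue proteins that marks cells and particles for removal. C1qa, C1qb and C1qc encode the A, B and C chains of C1q, the recognition molecule of the classical pathway, in which chains of each kind are assembled together into one molecule. C3 encodes the central component on which the activation pathways converge. C3ar1 and C5ar1 encode the G-protein-coupled receptors of C3a and C5a, the small fragments released when C3 and C5 are cleaved. Macrophages are known as a main source of C1q, and C1q genes are commonly used as markers of tumour macrophages.

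PyMT mammary tumour cells, from a mouse model in which polyoma middle T antigen drives breast tumours, had been injected into a mammary gland of female FVB mice aged 5-7 weeks, and the tumours were weighed when removed. Cells that were CD11b+, F4/80+ and Ly6G- were sorted in the presence of cycloheximide, which holds ribosomes on mRNA. From each of 13 tumours, mRNA carrying 3 or more ribosomes (polysome mRNA) and total mRNA of the same sorted cells were sequenced with SmartSeq2, which copies whole transcripts and keeps no record of strand, giving 26 libraries. The study asked how the mRNA pool and its ribosome loading differ between macrophages of tumours of different size. The 5 large tumours weighed 1504 to 2245 mg and the 8 small tumours weighed 467 to 841.8 mg, with no treatment or genotype given to divide them. Batch 2 held large replicates 3 to 5 and small replicates 6 to 8, titled LR and ER in the labels, and batch 1 held large replicates 1 and 2 and small replicates 1 to 5. Batch is the experimental batch named in the labels, and the meaning of ER and LR is not stated there. The size class rests on a limit of 1000 mg, set in the gap between the weights. The tumours arise from injected cells, so they model transplanted and not spontaneous tumours.

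Levels are CPM, read counts scaled to a common library size, after TMM, a scaling that lines up the bulk of the genes between libraries. A polysome fold is a library-scaled ratio of polysome to total mRNA, so it is relative to the other genes of a library. Libraries held 7034173 to 28257436 counts for polysome mRNA and 18018519 to 55609113 counts for total mRNA. The genes of the sort gate, Itgam (CD11b) and Adgre1 (F4/80), and the macrophage genes Csf1r and Cd68 had counts in all 26 libraries, and Ly6g was at 0 in 10 of 13 polysome libraries and 9 of 13 total mRNA libraries. Small replicate 7 stood apart: its 8 macrophage markers summed to 1157 CPM in polysome mRNA and 1885 CPM in total mRNA, the lowest sums of all. Its 10 fibroblast markers summed to 2678 CPM in polysome mRNA and 3416 CPM in total mRNA, the highest sums of all, and its epithelial sum of 3993 CPM in total mRNA was also the highest. Small replicate 1 had the next highest fibroblast sums, 654 CPM in polysome mRNA and 2201 CPM in total mRNA. Its macrophage sums were 9736 CPM in polysome mRNA and 7837 CPM in total mRNA. In bulk samples such as these, fewer cells of a type and less RNA per cell cannot be told apart.

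The C1q genes are neighbours on chromosome 4 and lie on the same strand (GRCm38, the mm10 build, GENCODE M21). C1qb spans chr4:136880129-136886187, C1qc spans chr4:136889804-136893065 and C1qa spans chr4:136895917-136898803, all on the minus strand, with 3616 bases between C1qb and C1qc and 2851 bases between C1qc and C1qa. The promoters of the neighbouring genes C1qb and C1qc are shown as a description, and no window was available for C1qa. No factor was measured at them here, and a link between promoter sequence and polysome folds was not tested. The C1qb window is chr4:136886151-136886450 and the C1qc window is chr4:136892865-136893164. Each sequence runs 5′ to 3′ on the gene's own strand, from 250 bases before RefSeq's start site to 50 after it, and is the RefSeq sequence of build GRCm38.p6. RefSeq's start site differs from the GENCODE gene end given above: for C1qc it lies inside the GENCODE span, so the C1qc window covers GENCODE's start and bases on either side of it, and for C1qb it lies just outside the span. Capitals mark TGCTGA, a core of the sites bound by MAF factors, and GAGGAA, a core of the sites bound by the macrophage factor PU.1, each read on either strand.
C1qb: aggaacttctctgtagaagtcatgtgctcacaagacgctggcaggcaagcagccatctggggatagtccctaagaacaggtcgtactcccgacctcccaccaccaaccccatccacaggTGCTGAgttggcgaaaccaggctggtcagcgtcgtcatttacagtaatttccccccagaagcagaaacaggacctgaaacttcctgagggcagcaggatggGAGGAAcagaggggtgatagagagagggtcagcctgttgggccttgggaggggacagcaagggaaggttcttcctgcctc
C1qc: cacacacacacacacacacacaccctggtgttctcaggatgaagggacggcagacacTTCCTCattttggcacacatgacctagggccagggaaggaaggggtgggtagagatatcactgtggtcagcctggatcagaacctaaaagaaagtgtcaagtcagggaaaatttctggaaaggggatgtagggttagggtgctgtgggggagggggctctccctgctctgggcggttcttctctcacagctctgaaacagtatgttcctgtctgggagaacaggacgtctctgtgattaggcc
The C1qb window holds the MAF core and the PU.1 core once each. The C1qc window holds the PU.1 core once, as its reverse complement, and no MAF core. The windows of C3, C3ar1 and C5ar1, not shown, each hold 1 MAF core and no PU.1 core. Of the 32851 mouse promoters of the same length, 19.5% held the MAF core and 28.3% the PU.1 core, so a match describes the letters and is not evidence of binding.

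C3 lies at chr17:57203970-57228136, C3ar1 at chr6:122847138-122856161 and C5ar1 at chr7:16246743-16259540, all on the minus strand. The C1q mRNAs were among the most abundant messages of these cells, the receptor mRNAs were at intermediate levels and C3 was low. Ranked by CPM per kb of transcript among 18194 genes, C1qa had a median rank of 11 in polysome mRNA and 6 in total mRNA. C1qb had median ranks of 12 in polysome mRNA and 8 in total mRNA, and C1qc of 7 in polysome mRNA and 14 in total mRNA. The C1q genes together took 0.320% to 2.74% of the counts of a polysome library and 0.813% to 2.46% of those of a total mRNA library. C3ar1 had median ranks of 439 in polysome mRNA and 329 in total mRNA, C5ar1 of 769 in polysome mRNA and 352 in total mRNA, and C3 of 7303 in polysome mRNA and 7042 in total mRNA. These ranks are levels per length. The lowest polysome share of C1q was that of small replicate 7, and the lowest within batch 1, 0.767%, was that of small replicate 1.

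**Figure D1:**
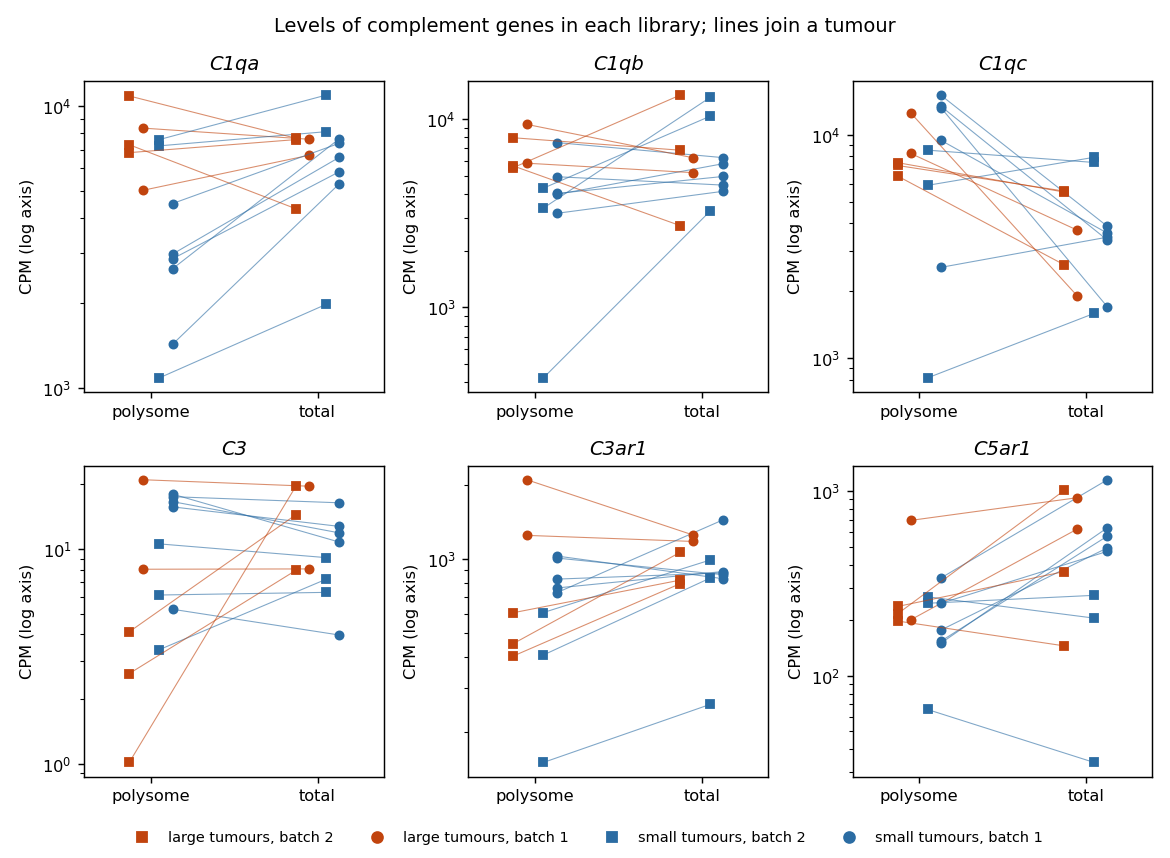
Levels of the 6 genes as TMM-scaled CPM on a log axis, in polysome mRNA (left) and total mRNA (right) of 13 tumours, with 1 line for each tumour. Orange-red marks large and blue marks small tumours, squares mark batch 2 and circles mark batch 1. C1qc lies higher in polysome mRNA than in total mRNA in 10 tumours, and small replicate 7 is the low blue square in the panels of the C1q genes and receptors.

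Polysome mRNA was compared with total mRNA of the same tumour to ask which complement messages were relatively enriched or depleted in the polysome fraction. The fold does not count the ribosomes on a message. C1qc was higher and C5ar1 was lower on polysomes, and C1qa and C3ar1 were lower by an amount close to the median of all genes. C1qb and C3 did not pass the test. By edgeR's quasi-likelihood test with the tumour as a block and Benjamini-Hochberg adjustment over 12109 genes, 1 of the 6 members was called higher (background 22.6% of genes) and 3 were called lower (background 34%). The median fold of the members was −0.40 on the log2 scale, against −0.34 for all genes tested.

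C1qc, the C chain gene, had 7490, 7275, 6527, 12490 and 8232 CPM in polysome mRNA of large replicates 3, 4, 5, 2 and 1. Total mRNA of the same tumours had 5530, 5586, 2612, 1890 and 3729 CPM. In the 8 small tumours the lowest, median and highest values were 813, 8979 and 15022 CPM in polysome mRNA and 1582, 3545 and 7915 CPM in total mRNA. The polysome level was thus above the total level in all 5 large tumours and in 5 of 8 small tumours, and the ranges of polysome and total mRNA overlapped. The C1qc fold was 1.01 ± 0.24 on the log2 scale (SE, edgeR adjusted p = 0.000763, higher in 10 of 13 tumours), a ratio of 2.01. It stayed past the threshold without each tumour in turn, with folds of 0.89 to 1.16, but not in batch 2 alone (0.18, edgeR adjusted p = 0.665).

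C5ar1, the C5a receptor gene, had 198, 216, 237, 693 and 201 CPM in polysome mRNA of large replicates 3, 4, 5, 2 and 1. Total mRNA of the same tumours had 145, 1006, 366, 920 and 623 CPM. In the small tumours the lowest, median and highest values were 65.7, 212 and 338 CPM in polysome mRNA and 33.9, 482 and 1151 CPM in total mRNA. The polysome level was below the total level in 4 of 5 large and 6 of 8 small tumours, with overlapping ranges. The C5ar1 fold was −0.85 ± 0.23 on the log2 scale (SE, edgeR adjusted p = 0.00259, lower in 10 of 13 tumours). Without each tumour in turn it ranged over −1.03 to −0.57 and remained past the threshold, but not in batch 2 alone (−0.18, edgeR adjusted p = 0.732).

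C1qa, the A chain gene, had 6826, 10837, 7280, 8339 and 5017 CPM in polysome mRNA of large replicates 3, 4, 5, 2 and 1, and 7592, 7675, 4319, 7614 and 6681 CPM in their total mRNA. In the small tumours the lowest, median and highest values were 1087, 2928 and 7592 CPM in polysome mRNA and 1979, 6967 and 10907 CPM in total mRNA. Every small tumour had less C1qa in polysome mRNA, while the large tumours fell on both sides. The C1qa fold was −0.40 ± 0.17 (SE, edgeR adjusted p = 0.0453, lower in 10 of 13 tumours), near the all-gene median of −0.34. The call held only without small replicates 5 or 6 or large replicate 2, and not in the other 10 of 13 fits that left out a tumour (adjusted p of 0.144 without small replicate 7), and it was lost with RLE scaling (adjusted p = 0.105) and with upper-quartile scaling (adjusted p = 0.0635).

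C3ar1, the C3a receptor gene, had 455, 405, 607, 2093 and 1246 CPM in polysome mRNA of large replicates 3, 4, 5, 2 and 1, and 1064, 794, 821, 1250 and 1178 CPM in their total mRNA. In the small tumours the lowest, median and highest values were 150, 747 and 1029 CPM in polysome mRNA and 258, 872 and 1442 CPM in total mRNA. The 3 large tumours of batch 2 had less, and the 2 large tumours of batch 1 had more, C3ar1 in polysome mRNA. The C3ar1 fold was −0.40 ± 0.17 (SE, edgeR adjusted p = 0.0470, lower in 9 of 13 tumours). The call held only without small replicate 6 or large replicate 2, and not in the other 11 of 13 fits that left out a tumour, and was lost with RLE scaling (adjusted p = 0.106) and with DESeq2 (adjusted p = 0.0554).

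C1qb, the B chain gene, had 5528, 7962, 5639, 9378 and 5832 CPM in polysome mRNA of large replicates 3, 4, 5, 2 and 1, and 13404, 6839, 2720, 6231 and 5196 CPM in their total mRNA. In the small tumours the lowest, median and highest values were 422, 4003 and 7509 CPM in polysome mRNA and 3242, 5381 and 13030 CPM in total mRNA. The polysome level was above the total level in 6 of 13 tumours. The C1qb fold was −0.38 ± 0.21 (SE, edgeR adjusted p = 0.131). Without large replicate 5 it was −0.53 and past the threshold (adjusted p = 0.0347). Without small replicate 7 it was −0.21 (adjusted p = 0.415) and without large replicate 3 it was −0.23 (adjusted p = 0.378).

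C3 had 4.11, 2.62, 1.01, 8.04 and 21 CPM in polysome mRNA of large replicates 3, 4, 5, 2 and 1, and 14.4, 7.94, 19.6, 8.07 and 19.6 CPM in their total mRNA. In the small tumours the lowest, median and highest values were 3.39, 13.1 and 18.0 CPM in polysome mRNA and 3.97, 9.93 and 16.4 CPM in total mRNA. The 3 large tumours of batch 2 had much less C3 in polysome mRNA. Small replicate 8, also of batch 2, had less by a smaller margin, at 3.39 CPM against 7.21 CPM in total mRNA. The polysome library of large replicate 5 held 15 C3 reads. The C3 fold was −0.66 ± 0.32 (SE, edgeR adjusted p = 0.0757), with lower polysome levels in 6 of 13 tumours, and DESeq2 called it at −0.59 (adjusted p = 0.0458). Without large replicate 5 it was −0.37 (edgeR adjusted p = 0.307), and edgeR called it in 0 of the 13 fits that left out a tumour.

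The folds were then compared between batches. C1qb and C1qc had lower polysome folds in batch 2 than in batch 1, and C5ar1 had a higher one. The test of the difference called 1 of the 6 members higher (background 10.5%) and 2 lower (background 6.95%), beside a median difference of 0.26 over all genes. The 8 macrophage markers summed to 1157 to 6348 CPM in polysome mRNA of batch 2 and to 8618 to 19810 CPM in that of batch 1, with no overlap, while their total mRNA sums overlapped, at 1885 to 11277 CPM in batch 2 and 6713 to 9950 CPM in batch 1. Much of these polysome sums was Csf1r, with 488 to 2388 CPM in batch 2 and 3289 to 12478.5 CPM in batch 1. The polysome levels of Adgre1 overlapped, at 41.5 to 269 CPM in batch 2 and 160 to 811 CPM in batch 1. Those of Cd68 also overlapped, at 85.5 to 1019 CPM in batch 2 and 774 to 2619 CPM in batch 1. Whether the shift of the macrophage sums has a part in the batch differences of the members was not tested.

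For C1qc, polysome minus total mRNA per tumour (log2 CPM) had a lowest, median and highest value of −0.96, 0.28 and 1.32 in the 6 tumours of batch 2 and of −0.45, 1.95 and 2.97 in the 7 tumours of batch 1. The fold was 0.18 ± 0.28 in batch 2 alone (edgeR adjusted p = 0.665) and 1.83 ± 0.35 in batch 1 alone (edgeR adjusted p = 0.000289). The difference was −1.70 ± 0.47 (SE, edgeR adjusted p = 0.0133), past the threshold without each tumour in turn, and not with DESeq2 (adjusted p = 0.0665). The C1qc fold was thus past the threshold in batch 1 and not in batch 2.

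For C5ar1 the difference per tumour had a lowest, median and highest value of −2.22, 0.12 and 0.95 in batch 2 and of −2.08, −1.63 and −0.41 in batch 1, where all 7 tumours were below 0. The fold was −0.18 ± 0.35 in batch 2 alone (edgeR adjusted p = 0.732) and −1.27 ± 0.23 in batch 1 alone (edgeR adjusted p = 0.000113). The difference of 1.35 (edgeR adjusted p = 0.0376) was lost without any 1 of small replicates 1, 2, 3, 5, 6, 7 and 8 and large replicates 1 and 3, and was 1.06 without small replicate 7 (adjusted p = 0.14).

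For C1qb the difference per tumour had a lowest, median and highest value of −2.94, −1.27 and 1.05 in batch 2 and of −0.54, 0.15 and 0.59 in batch 1. The fold was −1.0 ± 0.35 in batch 2 alone (edgeR adjusted p = 0.0428) and 0.17 ± 0.20 in batch 1 alone (edgeR adjusted p = 0.517). The difference of −1.30 (edgeR adjusted p = 0.0355) was lost without any 1 of small replicates 2 to 7 and large replicate 3, and was −0.99 without small replicate 7 (adjusted p = 0.149).

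C3ar1 was below 0 in all 6 tumours of batch 2, from −1.22 to −0.44, and lay between −0.98 and 0.74 in batch 1. Its fold was −0.84 ± 0.26 in batch 2 alone (edgeR adjusted p = 0.0262) and 0.19 ± 0.22 in batch 1 alone (edgeR adjusted p = 0.483), and the difference of −0.92 missed the threshold (edgeR adjusted p = 0.0571), though DESeq2, voom and RLE scaling called it. C1qa had the opposite order, with a fold of −0.06 ± 0.27 in batch 2 alone (edgeR adjusted p = 0.896) and −0.64 ± 0.21 in batch 1 alone (edgeR adjusted p = 0.0169), and its difference of 0.65 was not past the threshold (edgeR adjusted p = 0.191). The median fold of all genes tested had the same order as C1qa, at −0.16 in batch 2 alone and −0.46 in batch 1 alone. The C3 fold was −1.37 ± 0.55 in batch 2 alone (edgeR adjusted p = 0.0775) and 0.29 ± 0.35 in batch 1 alone (edgeR adjusted p = 0.522). The C3 difference of −1.40 was not past the threshold (edgeR adjusted p = 0.128), though DESeq2 called it at −1.50 (adjusted p = 0.0236).

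**Figure D2:**
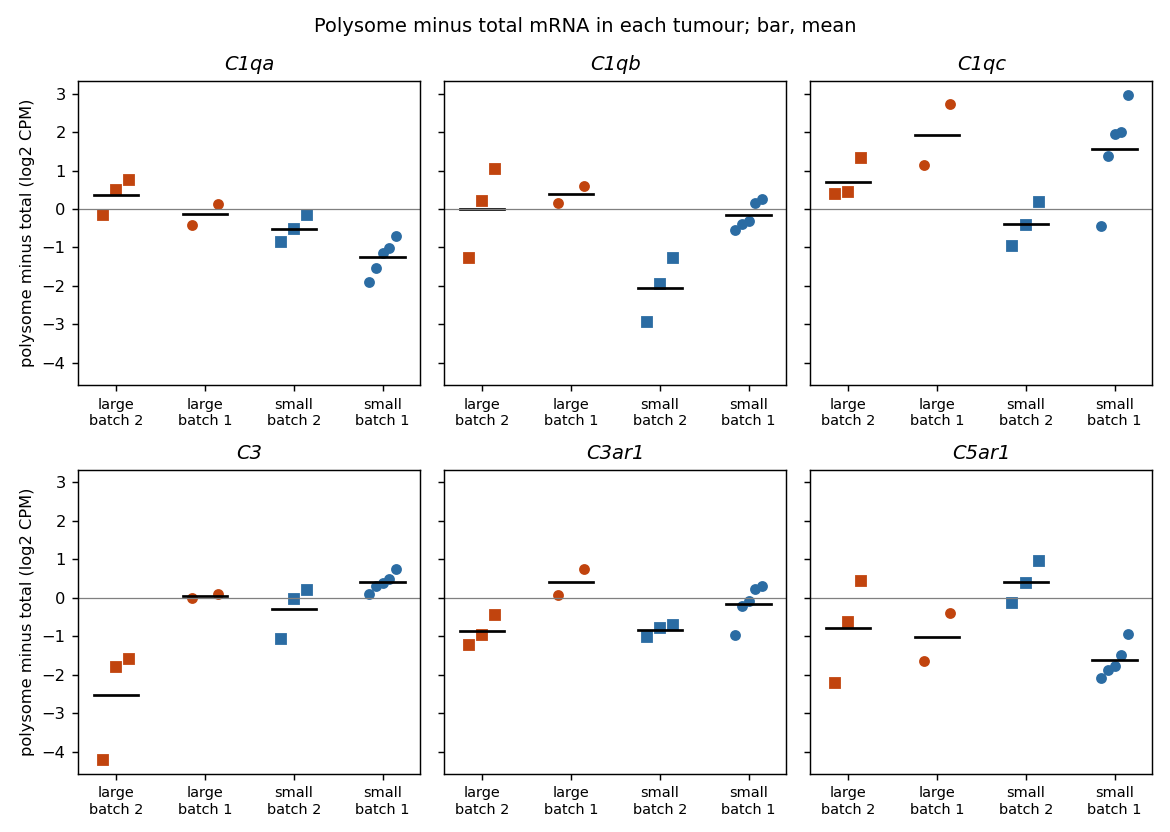
Polysome minus total mRNA (log2 CPM) of each gene in each tumour, for large tumours of batch 2 and batch 1 and small tumours of batch 2 and batch 1, with the mean as a bar. C1qa lies below 0 in all 8 small tumours, C3ar1 in all 6 tumours of batch 2 and C5ar1 in all 7 tumours of batch 1.

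Levels were also compared between batches within each RNA source, with size as a covariate. In total mRNA, 0 of the 6 members were called (background 16.7%, either direction). C5ar1 came nearest, with 338 ± 346 CPM in batch 2 and 694 ± 250 CPM in batch 1 (SD, n = 6 and 7), a fold of −1.39 (edgeR adjusted p = 0.0843) that both voom and DESeq2 called. It was the 1 member with an unadjusted p under 0.05. In polysome mRNA, 2 of the 6 members were lower in batch 2 (background 10.3%). C3ar1 had a lowest, median and highest polysome level of 150, 432 and 607 CPM in batch 2 and of 730, 1009 and 2093 CPM in batch 1, with no overlap, and a fold of −1.41 ± 0.33 (SE, edgeR adjusted p = 0.00516). C3 had 1.01, 3.75 and 10.6 CPM in batch 2 and 5.23, 16.6 and 21 CPM in batch 1, a fold of −1.67 ± 0.52 (SE, edgeR adjusted p = 0.0281) that was lost without large replicate 1 (adjusted p = 0.107), small replicates 4 (adjusted p = 0.0525) and 8 (adjusted p = 0.0538), and large replicate 4 (adjusted p = 0.0585). Marker sums of several cell types also moved with batch in polysome mRNA. Macrophage sums were lower in batch 2, as given above. The 7 neutrophil markers summed to 87.4 ± 50.8 CPM in batch 2 and 264 ± 106 CPM in batch 1, and the 5 endothelial markers to 5.39 ± 2.06 CPM in batch 2 and 14.7 ± 7.4 CPM in batch 1 (SD, n = 6 and 7). The 6 monocyte markers went the other way, with 183 ± 97.9 CPM in batch 2 and 51.5 ± 26.5 CPM in batch 1 (SD, n = 6 and 7). The neutrophil sum did not describe its defining genes. Its highest value, 455 CPM in small replicate 3 of batch 1, came from 2 of the 7 genes, with S100a8, S100a9 and Ly6g at 0. S100a8 and S100a9 peaked in large replicate 5 of batch 2, at 37.5 and 25.6 CPM in polysome mRNA. Their highest polysome levels in batch 1 were 7.30 and 8.07 CPM. The part of these markers in the folds was not tested.

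The chains of C1q form one protein, so their mRNAs were also set against each other within a library, as ratios of counts per kb that need no scaling between libraries. These ratios were looked at after the folds were known and are given without a test. In polysome mRNA the C1qc to C1qa ratio was 0.772 ± 0.159 in batch 2 and 2.61 ± 1.26 in batch 1, and in total mRNA it was 0.652 ± 0.109 in batch 2 and 0.412 ± 0.148 in batch 1 (SD, n = 6 and 7 tumours). The polysome ratios of batch 2, at 0.580 to 0.970, and of batch 1, at 1.29 to 4.35, did not overlap. In batch 1 the ratio was higher in polysome mRNA than in total mRNA in 7 of 7 tumours, by 1.44 to 3.68 on the log2 scale, and in batch 2 in 3 of 6 tumours, by −0.25 to 0.71.

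The C1qb to C1qa ratio was 0.596 ± 0.167 in batch 2 and 1.47 ± 0.36 in batch 1 in polysome mRNA, and 1.19 ± 0.46 in batch 2 and 0.752 ± 0.033 in batch 1 in total mRNA (SD, n = 6 and 7). Total mRNA of batch 1 thus held B chain and A chain messages in a nearly fixed proportion, from 0.722 to 0.810, which widened to 1.07 to 2.11 on polysomes. In batch 2 the ratio went the other way in 5 of 6 tumours, lower in polysome than in total mRNA. The C1qc to C1qb ratio was the one with the same direction in both batches: it was higher in polysome mRNA in 6 of 6 tumours of batch 2, by 0.16 to 1.98 on the log2 scale, and in 6 of 7 tumours of batch 1, by −0.06 to 2.70. The exception was small replicate 1, which also had the highest fibroblast sums of batch 1, and their part in this ratio was not tested.

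**Figure D3:**
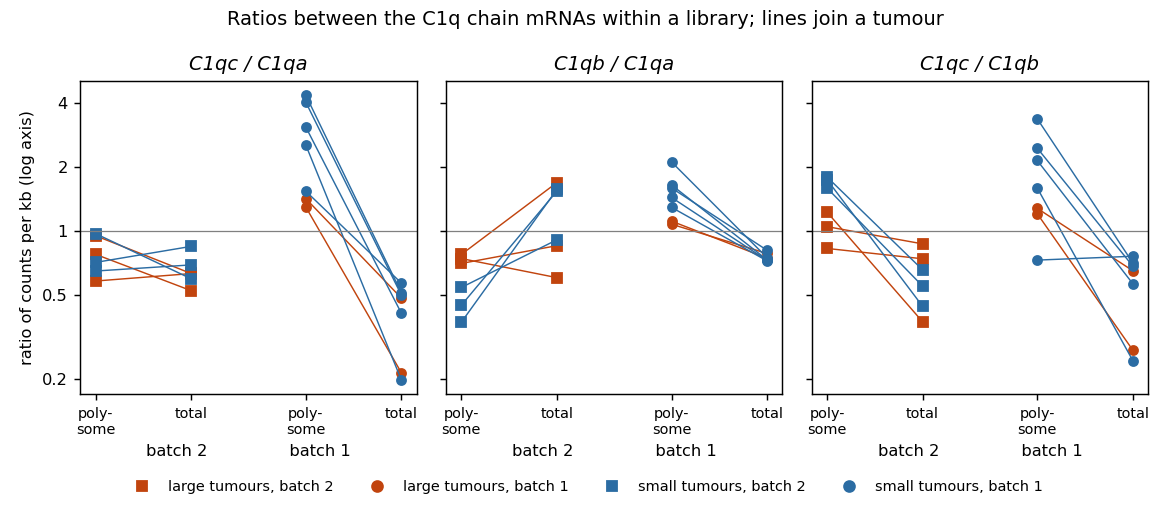
Ratios of counts per kb (log axis) between the C1q chain mRNAs within each library, in polysome mRNA and total mRNA of batch 2 (left pair) and batch 1 (right pair), with 1 line for each tumour and colours and symbols by size and batch. The C1qc to C1qa ratio lies between 1.29 and 4.35 in the polysome libraries of batch 1 and under 1 in every other library.

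Tumour size was the comparison the study was designed around. No member was called in any of 3 tests of large against small tumours: in total mRNA, in polysome mRNA, or in their difference. In total mRNA 0 of 6 members and 0 of 11671 genes were called by edgeR (0%), with 538 genes and 0 members at an unadjusted p under 0.05 and 0 genes called by voom or DESeq2. In polysome mRNA 0 of 6 members and 0 of 10933 genes were called (0%), with 1362 genes and 3 members at an unadjusted p under 0.05, 0 genes called by voom and 147 by DESeq2. For the difference of polysome and total mRNA, 0 of 6 members and 0 of 12109 genes were called (0%), with 1385 genes and 2 members at an unadjusted p under 0.05, 0 genes called by voom and 129 by DESeq2. None of the genes that DESeq2 called was a member.

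In total mRNA the C1q genes had close averages in both size classes. C1qa averaged 6776 ± 1434 CPM in large and 6710 ± 2564 CPM in small tumours, C1qb 6878 ± 3973 CPM in large and 6529 ± 3397 CPM in small tumours, and C1qc 3869 ± 1675 CPM in large and 4129 ± 2375 CPM in small tumours (SD, n = 5 and 8). The log2 folds were −0.05 ± 0.35 for C1qa, −0.09 ± 0.39 for C1qb and −0.31 ± 0.40 for C1qc (SE, edgeR adjusted p = 0.988, 0.976 and 0.916). C5ar1 had the largest of the 6 folds in size, 0.87 ± 0.54, with C3 at 0.57 ± 0.39 and C3ar1 at 0.28 ± 0.30 (SE, edgeR adjusted p = 0.865, 0.865 and 0.903). The standard errors exceed the C1q folds, so the sign of these folds is unresolved.

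In polysome mRNA the fitted folds were above 0 for 5 of the 6 members and did not pass the test. C1qa averaged 7660 ± 2144 CPM in large and 3792 ± 2460 CPM in small tumours, a fold of 0.98 ± 0.42 (SE, edgeR adjusted p = 0.357). C1qb averaged 6868 ± 1723 CPM in large and 3963 ± 1971 CPM in small tumours, a fold of 1.03 ± 0.45 (SE, edgeR adjusted p = 0.364). Without small replicate 7 the small tumours averaged 4178 ± 2381 CPM of C1qa and 4469 ± 1464 CPM of C1qb in polysome mRNA. These averages pool the batches. In batch 2, C1qa averaged 8314 CPM in large and 5298 CPM in small tumours, or 7403 CPM in small tumours without replicate 7. In batch 1 it averaged 6678 CPM in large and 2888 CPM in small tumours. C1qb averaged 6376 CPM in large and 3832 CPM in small tumours of batch 2 without replicate 7, and 7605 and 4724 CPM in batch 1. The other folds were 0.28 for C1qc, 0.68 for C3ar1, 0.67 for C5ar1 and −0.63 for C3 (edgeR adjusted p = 0.868, 0.401, 0.459 and 0.656).

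The difference of polysome and total mRNA for C1qa was −0.15, 0.50, 0.75, 0.13 and −0.41 on the log2 scale in large replicates 3, 4, 5, 2 and 1. In the 8 small tumours its lowest, median and highest values were −1.89, −0.94 and −0.17. It was above 0 in 3 of 5 large tumours and in 0 of 8 small tumours, and the ranges overlapped. The fitted difference between the size classes was 1.00 ± 0.34 (SE, edgeR adjusted p = 0.328), of the same sign in batch 2 alone (0.87) and in batch 1 alone (1.13). C1qb gave 1.29 ± 0.44 (SE, edgeR adjusted p = 0.324), with 2.05 in batch 2 alone and 0.56 in batch 1 alone. Over the alternatives that kept all tumours or 1 batch, the lowest adjusted p was 0.0557 for C1qa and 0.0758 for C1qb.

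C1qc gave 0.74 and C3 gave −1.25 for the same comparison (edgeR adjusted p = 0.569 and 0.461). In large replicates 3, 4, 5, 2 and 1 the C3 difference of polysome and total mRNA was −1.80, −1.58, −4.22, −0.0049 and 0.10, and in the small tumours its lowest, median and highest values were −1.08, 0.26 and 0.74. C3ar1 gave 0.25 and C5ar1 gave −0.29 (edgeR adjusted p = 0.809 and 0.842). For none of the 6 members did a term for size by batch pass the test, with edgeR adjusted p of at least 0.855 in total mRNA and 0.887 in polysome mRNA.

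**Figure D4:**
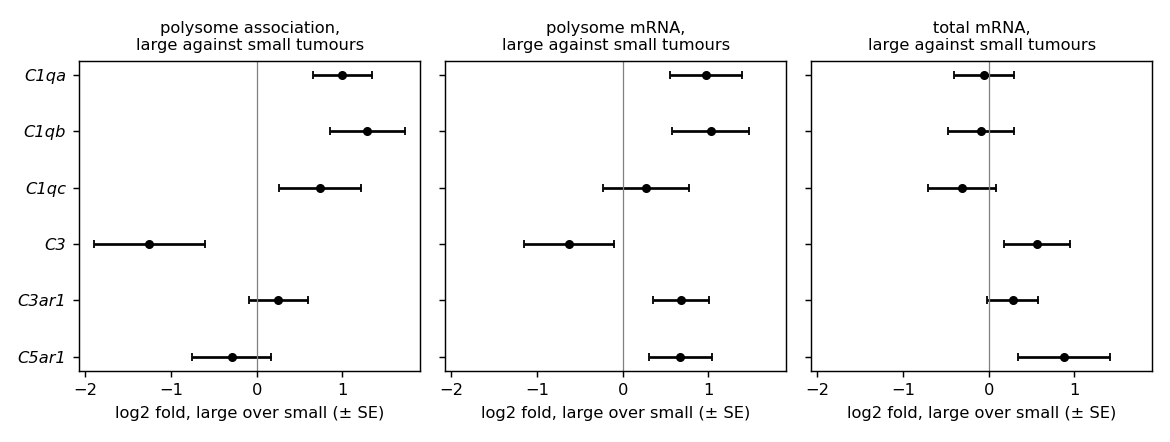
Log2 fold of large over small tumours (± SE, edgeR) for each gene, as polysome association (the difference of polysome and total mRNA), in polysome mRNA and in total mRNA. C1qa and C1qb lie near 1 in the first 2 panels and near 0 in total mRNA, and no fold passed the threshold after adjustment.

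The members were set against each other across the 13 tumours, as 15 pairs in each RNA source, on log2 CPM with the batch mean removed. The p-values are 2-sided, from 100000 permutations within batches, and adjusted over the 15 pairs. C1qa and C1qb varied together in both sources. In polysome mRNA their Pearson r was 0.94 (permutation adjusted p = 0.00075) and their Spearman rho 0.86 (permutation adjusted p = 0.00525), with r of 0.98 within batch 2, 0.94 within batch 1 and 0.82 without small replicates 7 and 1, the farthest from the median of C1qa. In total mRNA r was 0.81 (permutation adjusted p = 0.136) and rho 0.86 (permutation adjusted p = 0.0257), with r of 0.80 within batch 2, 0.97 within batch 1 and 0.89 without small replicates 7 and 8.

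C1qc did not keep to that pattern. In total mRNA its r with C1qa was 0.97 within batch 2 and −0.50 within batch 1, and the pooled r of 0.75 (permutation adjusted p = 0.136; rho 0.68, permutation adjusted p = 0.169) was 0.35 without small replicates 7 and 8. In batch 1, small replicate 5 and large replicate 2 had 1691 and 1890 CPM of C1qc in total mRNA, under the 3367 to 3880 CPM of the other 5 tumours. The same libraries had the most C5ar1 of batch 1, at 1151 and 920 CPM, against 471 to 633 CPM in the others, and the least C3, at 3.97 and 8.07 CPM, against 10.8 to 19.6 CPM. Their macrophage marker sums of 7770 and 9725 CPM lay within the range of batch 1.

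Of the 15 pairs, 9 passed by Pearson's r and 4 by Spearman's rho in polysome mRNA, with 3 passing by both, and 0 passed by Pearson's r and 2 by Spearman's rho in total mRNA. The 3 polysome pairs that passed by both were C1qa with C1qb, C1qa with C5ar1 and C1qb with C5ar1. C1qa with C5ar1 had r of 0.88 and rho of 0.76 (permutation adjusted p = 0.012 and 0.0273), and r of 0.77 without small replicates 7 and 1. C1qb with C5ar1 had r of 0.81 and rho of 0.76 (permutation adjusted p = 0.012 and 0.0273), and r of 0.78 without small replicate 7 and large replicate 4. C1qa with C1qc in polysome mRNA rested on small replicates 7 and 1, with a pooled r of 0.85 and rho of 0.39 (permutation adjusted p = 0.0294 and 0.224) and r of −0.05 without them.

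The genes most like each member were taken as the 3 with the highest r to it over the 13 total mRNA libraries, on log2 CPM with the batch mean removed, among the 7047 genes that averaged 10 CPM or more in total mRNA. They are a description of these libraries, chosen by that r, and each r over the 13 polysome libraries is given beside it. C1qa was most like Fcer1g, the gene of the common Fc receptor gamma chain (r 0.98 in total, 0.71 in polysome mRNA), Lamtor1 (0.98 and 0.67) and Gpx1 (0.95 and 0.33). C1qb was most like Pld4 (0.97 and 0.86), Ptpn6, the gene of the phosphatase SHP-1 (0.95 and 0.73), and Uqcrfs1 (0.95 and 0.73). C1qc was most like Spi1, the gene of PU.1 (0.93 and 0.95), Il21r (0.86 and 0.65) and Slamf9 (0.86 and 0.72). Without small replicate 7 the r of C1qc with Spi1 in total mRNA was also 0.93.

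C3 was most like Adrbk2 (0.92 and 0.39), Zfp282 (0.91 and 0.12) and Kat2a (0.90 and 0.0098), so the likeness of C3 in total mRNA was not seen on polysomes. C3ar1 was most like Cd37 (0.93 and 0.78), Fcgr2b, the inhibitory Fc receptor gene (0.93 and 0.74), and Tmem37 (0.93 and 0.55). Without small replicate 7 the r of C3ar1 with Fcgr2b in total mRNA was 0.66. C5ar1 was most like Akr1b10 (0.98 and 0.52), Gnpda1 (0.97 and 0.72) and Sqrdl (0.96 and 0.86).

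The rest of the complement system was described with lists of 46 genes, of which 45 had rows of their own and 26 passed the low-count filter. On polysomes 5 of the 26 were higher and 11 were lower, beside 22.6% of all genes tested that were higher and 34% that were lower. The median fold was −1.17, against −0.34 for all genes tested. Of the genes listed for the start of the classical pathway, C4a and C4b were higher and the protease genes C1ra and C1rb were lower. C4a had a lowest, median and highest level of 19.9, 128 and 1696 CPM in polysome mRNA and 4.93, 50.1 and 208 CPM in total mRNA, a fold of 1.76 ± 0.26 (SE, edgeR adjusted p = 3.3e-06, higher in 13 of 13 tumours). C4b had a fold of 1.48, C1ra of −1.13 and C1rb of −1.55 (edgeR adjusted p = 1.8e-05, 0.00018 and 0.00014). C4a and C4b, and C1ra and C1rb, are near-identical copies, so how their reads were divided is uncertain.

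The alternative pathway genes Cfb, which encodes factor B, and Cfp, which encodes properdin, were both lower on polysomes. Cfb had a lowest, median and highest level of 6.85, 21.2 and 169 CPM in polysome mRNA and 37.8, 105 and 650 CPM in total mRNA, a fold of −2.22 ± 0.22 (SE, edgeR adjusted p = 7.6e-09, lower in 13 of 13 tumours). Cfp had a fold of −0.71 (edgeR adjusted p = 0.00316). Of 7 regulators tested, 4 were lower and 0 higher, beside the same all-gene shares of 34% lower and 22.6% higher: Cr1l, the gene of the membrane regulator Crry, at −1.58, Clu at −1.21, Serping1 at −4.04 and Susd4 at −3.43 (edgeR adjusted p = 4.3e-07, 0.00187, 0.0106 and 0.0256). Serping1 and Susd4 were at 0 in 9 and 11 of 13 polysome libraries and under 6 CPM in total mRNA, so the size of their folds depends on the fit. None of the 2 lectin-pathway genes and 2 terminal-pathway genes that passed the filter was called, and of these Fcna was at 0.31 and C6 at 0.54 (edgeR adjusted p = 0.452 and 0.214).

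Among 8 other receptors and partners, C5ar2 (0.59), Itgam (0.54) and Lrp1 (1.65) were higher and Itgb2 (−1.60), Vsig4 (−2.02) and Calr (−1.79) were lower on polysomes (edgeR adjusted p = 0.0387, 0.027, 4.6e-06, 6.7e-07, 2.9e-05 and 1.8e-07). C5ar2 encodes the second C5a receptor, and its fold had the opposite sign to that of C5ar1. Itgam and Itgb2 encode the subunits of complement receptor 3, which binds fragments of C3. Itgam had a lowest, median and highest level of 43.8, 343 and 1273 CPM in polysome mRNA and 16.7, 271 and 427 CPM in total mRNA, and Itgb2 of 21.6, 230 and 432 CPM in polysome mRNA and 259, 594 and 835 CPM in total mRNA. Lrp1 and Calr encode proteins linked to the uptake of C1q-bound cells, and Vsig4 encodes a receptor of C3 fragments.

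**Figure D5:**
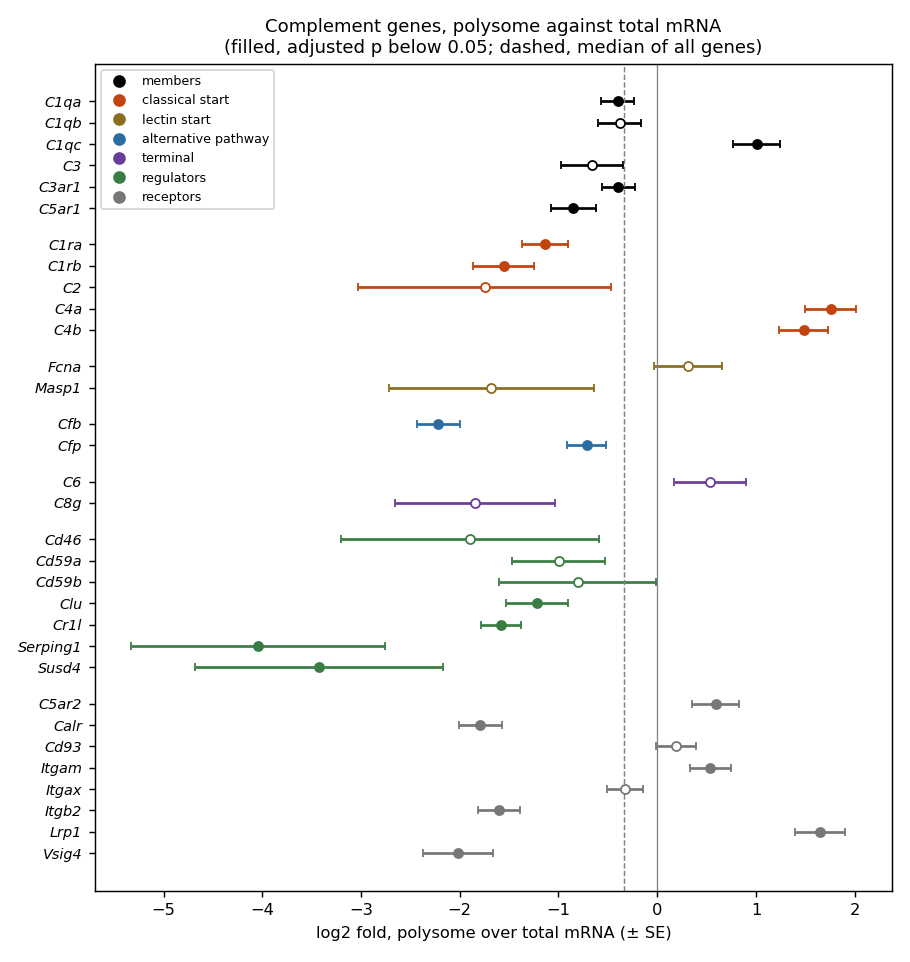
Log2 fold of polysome over total mRNA (± SE, edgeR) of the 6 members and of the 26 other complement genes that passed the filter, coloured by list. Filled points have an adjusted p below 0.05 and the dashed line is the median of all genes, −0.34. C1qc lies at 1.01, on the side of C4a, C4b and Lrp1, and Cfb and Calr lie below −1.7.

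Between batches, 1 of the 26 complement genes had a higher polysome fold in batch 2, Vsig4 at 2.25 (edgeR adjusted p = 0.0282), and 6 had a lower one, beside 10.5% of all genes higher and 6.95% lower. The 6 were C1ra (−1.45), C4a (−1.75), C4b (−1.62), Cfp (−1.34), Itgb2 (−1.45) and Lrp1 (−2.17), with edgeR adjusted p of 0.0299, 0.0191, 0.0242, 0.0181, 0.0171 and 0.00312. In polysome mRNA 10 of 21 complement genes tested were lower and 0 higher in batch 2, beside 10.3% of all genes lower and 11.1% higher. They were C1ra (−2.02), C1rb (−2.0), C4a (−3.27), C4b (−3.19), Cfb (−2.05), C5ar2 (−1.91), Itgam (−2.02), Itgax (−2.40), Itgb2 (−1.37) and Lrp1 (−2.72), with edgeR adjusted p of 0.00013 for Lrp1 to 0.0353 for C1rb. The macrophage list shares Itgam with them. In total mRNA 1 of 24, Clu (3.58, edgeR adjusted p = 0.0315), was higher and 0 were lower, beside 11.1% of all genes higher and 5.66% lower. Clu had a lowest, median and highest level of 2.62, 13.1 and 814 CPM in total mRNA. Whether its fold rests on the highest library was not tested. Between large and small tumours 0 complement genes were called in total mRNA, polysome mRNA or their difference by edgeR, with 0, 1 and 1 of them at an unadjusted p under 0.05.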

How the data were processed

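The submitters' processing notes list HISAT, HISAT2, limma and mm10 without saying what each did. How reads were assigned to genes, with which annotation and strand setting, is not given in the sources used. Each library came as whole-number read counts for 19549 gene rows, deposited by the authors beside log2 values that the authors had scaled by library. Overlapping genes share 830 joined rows, 1 of them with Masp2. Every test used the counts. The deposited log2 values were only checked against them.

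Genes kept by filterByExpr were TMM-scaled and compared with edgeR 4.0.16 (quasi-likelihood F-test, robust; R version 4.3.3). Benjamini-Hochberg adjustment ran over all genes tested, with a threshold of 0.05. Polysome against total mRNA and its differences between batches and size classes were terms of a single model in which each tumour was a block. Size and batch were tested jointly in each RNA source. Both libraries of a tumour share its name in the titles, which gives the pairing. Their deviations from the group means had a median correlation of 0.249 (lowest 0.0372, against −0.0167 between tumours). A standard error is the fold divided by the root of F. Log2 CPM used a prior count of 1, and CPM per kb the longest protein-coding GENCODE M21 transcript. The size tests of total mRNA and of polysome association were first tried on simulated counts. The polysome, batch and polysome mRNA size tests were not. Alternatives were RLE and upper-quartile scaling, other filters, limma 3.58.1 voom, DESeq2 1.42.0, no replicate block, each batch alone, log2 weight for size class, and leaving out each tumour. Depth limits precision most for C3. The members and lists were chosen with earlier results of these data known, and 1 listed gene is not reported here. Other complement genes were named where called, up to 6 a list and otherwise the 4 with the lowest p, and the genes most like a member were its 3 highest r.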

Additional observations from a re-analysis of the deposited data

Results flagged for a closer look

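A sample was listed where its gap to the nearest other sample of its group was large for the group's range by Dixon's criterion. Of 36 groups tested, 6 had such a sample, and chance gives about 1 in 20. Small replicate 7 was lowest among small tumours for C1qa in total mRNA (10.95 log2 CPM), C1qb in polysome mRNA (8.72 log2 CPM) and C3ar1 in total mRNA (8.01 log2 CPM). It is also the tumour with the lowest macrophage and the highest fibroblast marker sums, and their part in these levels was not tested. Large replicate 5 was lowest among large tumours for C1qa in total mRNA (12.08 log2 CPM). Large replicate 2 was highest among large tumours for C5ar1 in polysome mRNA (9.44 log2 CPM). Small replicate 8 had the lowest difference of polysome and total mRNA of C3 among small tumours (−1.08 on the log2 scale).

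The polysome folds of 3 members differed between batches by the test of the difference. Batch 2 minus batch 1 was −1.30 for C1qb, −1.70 for C1qc and 1.35 for C5ar1 on the log2 scale.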

How the results depend on the processing

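Of 892 alternative values of the members' folds, 796 kept their direction and their side of the threshold, 59 lost the call, 14 gained one and 23 changed sign. The cause of these changes was not tested. A call could be lost only by a fold called in the main fits. These were 4 folds on polysomes, 3 in the batch difference and 2 for batch in polysome mRNA. Most of the 796 kept values belonged to folds without a call, such as all those of the size tests, so they say little about the calls. The count of members called on polysomes, 4, was 2 with RLE scaling, upper-quartile scaling, no filter on low counts, no replicate block or batch 2 alone (there C1qb and C3ar1), and 2 to 4 without each tumour. Genes called on polysomes were 3606 in batch 2 alone, and 6364 to 6834 without each tumour. Without the pairing of libraries by tumour (no replicate block), 0 members differed between batches, as against 3, and C1qa (adjusted p = 0.311) and C3ar1 (adjusted p = 0.153) lost their polysome calls. Without each tumour the batch difference was called for 1 to 4 members and 1385 to 2227 genes. The 1385 came without small replicate 6, and 1 member was left without small replicates 2, 3, 6 or 7 or large replicate 3.

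For size, polysome association had 8 genes without the filter and 129 with DESeq2, and polysome mRNA had 3 without the filter, 147 with DESeq2, 1 with log2 weight and 0 to 42 without each tumour (42 without small replicate 5). For batch in total mRNA, DESeq2 called 3185 genes, and 839 to 2787 were called without each tumour, with 1049, 902, 911, 1207, 839 and 989 without small replicates 2 to 7. Members called there were 1 with voom, 1 with DESeq2 and 0 to 1 without each tumour (C5ar1 without large replicate 4, C1qc without small replicate 7). For batch in polysome mRNA 1 member was called at a mean of at least 10 CPM, where C3 was not tested, and 1 to 2 members and 1620 to 2760 genes were called without each tumour.

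Signs changed on polysomes in batch 1 alone for C1qb (0.17), C3 (0.29) and C3ar1 (0.19). For size in polysome association they changed for C5ar1 in batch 1 alone (0.63; −0.75 to 0.16 without each tumour) and C3ar1 in batch 2 alone (−0.053). For size in total mRNA they changed for C1qa with voom (0.079), in batch 1 alone (0.095) and over −0.24 to 0.21 without each tumour. The same held for C1qb in batch 1 alone (0.13), with no batch term (0.019) and over −0.34 to 0.13 without each tumour. For batch in total mRNA C1qa was −0.018 with upper-quartile scaling, −0.14 with voom and −0.27 to 0.31 without each tumour. For size in polysome mRNA C1qc was −0.077 in batch 1 alone and −0.035 to 0.48 without each tumour. None of these reversed values passed the threshold. Depth limits C3, whose polysome libraries held as few as 15 reads.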
